A study of Homo sapiens with 12 samples.

Results

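The genes described here are 10 components and feedback genes of the NF-κB pathway, namely the subunits NFKB1, NFKB2, RELA and RELB, the inhibitors NFKBIA and NFKBIE, the dampening factors TNFAIP3 and TNIP1, the response gene TNFAIP2 and the kinase gene IKBKE. They were picked by gene symbol, with earlier results of these data known, and all 10 were found among the 63086 genes of the deposited table. RNA of MIA PaCa-2 cells, an established human pancreatic carcinoma line with mesenchymal traits, was sequenced in 12 libraries, with 3 biological replicates of each of 4 lines. WT was the non-manipulated line, and CRISPR Control went through gene editing but carried only a silent point change in TIMP1, which encodes the secreted protease inhibitor TIMP-1. TIMP1 KO 1 and TIMP1 KO 2 were knockout clones made with guides against exon 4 of TIMP1. All lines were grown without stimulation in the same serum-containing medium to a similar density. Each knockout line is a single clone, so an effect of the knockout and a trait of the clone cannot be told apart within either line. The labels do not say how the replicates were separated, so the p-values measure the spread between these samples, which may be technical.

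NF-κB factors are dimers of subunits that share a DNA-binding domain and are held in the cytoplasm by IκB proteins until an upstream kinase complex marks the inhibitor for destruction. The freed dimers enter the nucleus and switch on cytokine, survival and adhesion genes, and among their targets are several of their own inhibitors and subunits, which closes a negative feedback loop. In pancreatic carcinoma cells the pathway is known for constitutive activity, and mRNA levels of its feedback genes are often used as a readout of it.

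Promoter sequence was examined because most of these genes are described as NF-κB targets themselves. RefSeq promoter windows of GRCh38.p14, from 250 bases before to 50 bases after a start site, were available for 8 of the 10 genes in 13 windows; RELB and NFKBIE had no entry. The 10-base kappa B consensus was searched on both strands and was present in 11.3% of all 35116 windows and in at least 1 window of 13.3% of 27305 genes. It was found for NFKB1, NFKB2, NFKBIA, TNFAIP3 and TNIP1, 5 of the 8 genes, and for none of the windows of RELA, TNFAIP2 and IKBKE. The 4 stretches shown are those of 2 genes with a match whose mRNA was highest in TIMP1 KO 2 and of 2 genes without a match that differed most between lines. Each is written 5′ to 3′ on the strand of its gene and holds no exon in GENCODE release 44, and capitals mark the matches to the consensus. NFKBIA is on the minus strand at chr14:35404750-35404899, TNFAIP3 on the plus strand at chr6:137867109-137867213, where WAKMAR2 runs on the opposite strand, TNFAIP2 on the plus strand at chr14:103123311-103123436, within an intron of a longer annotated transcript, and IKBKE on the plus strand at chr1:206470326-206470475.
NFKBIA: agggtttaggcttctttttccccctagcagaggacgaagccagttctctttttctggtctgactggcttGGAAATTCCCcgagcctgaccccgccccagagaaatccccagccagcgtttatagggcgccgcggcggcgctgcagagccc
TNFAIP3: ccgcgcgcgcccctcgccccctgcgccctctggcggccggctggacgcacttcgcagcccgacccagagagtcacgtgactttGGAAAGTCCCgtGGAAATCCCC
TNFAIP2: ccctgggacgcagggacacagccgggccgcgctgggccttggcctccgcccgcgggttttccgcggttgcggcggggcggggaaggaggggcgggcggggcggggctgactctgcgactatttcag
IKBKE: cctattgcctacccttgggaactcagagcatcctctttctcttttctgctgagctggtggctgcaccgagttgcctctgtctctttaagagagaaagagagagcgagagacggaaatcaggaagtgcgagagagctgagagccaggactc

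In NFKBIA the match lay at bases -81 to -72 from the start site, and TNFAIP3 held a pair of matches at -67 to -58 and -55 to -46, separated by only a few bases. The core of the interferon-stimulated response element, likewise searched on both strands, was in 3.57% of all windows and, among the windows of these genes, in that of RELA start 1 alone. A match describes letters in a window and not a bound site, and its absence says nothing of sites farther away.

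**Figure D1:**
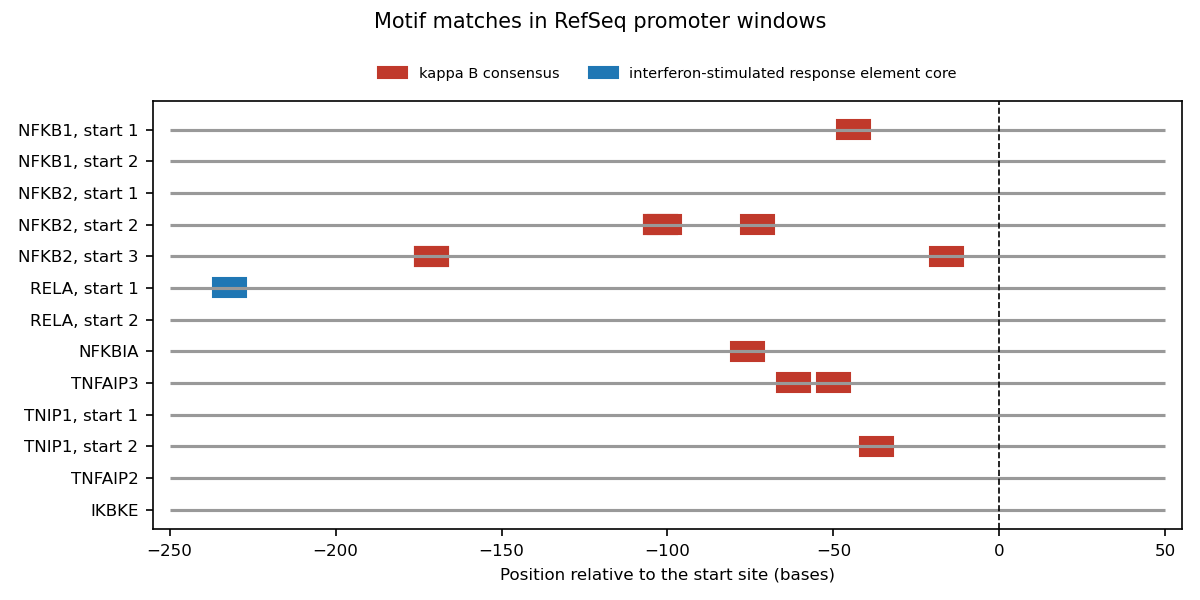
Matches to the kappa B consensus (red) and the interferon-stimulated response element core (blue) in the RefSeq promoter windows of 8 genes, with the position in bases from the start site (dashed line) on the x axis and 1 grey line per window. The matches of NFKB1, NFKBIA, TNFAIP3 and TNIP1 lie within 100 bases before the start site, and the windows of TNFAIP2 and IKBKE hold none.

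The libraries held 26908701 to 36093563 reads in genes, and all 10 genes passed the filter on low values that left 15987 genes for testing. TIMP1 was at 3837, 3290.2 and 3532 normalized counts in WT, at 2285, 2826 and 2959 in CRISPR Control, at 1562, 1624 and 1613 in TIMP1 KO 1 and at 1136, 1192 and 1155 in TIMP1 KO 2. All 6 knockout libraries thus lay below the other 6, and CRISPR Control lay below WT (log2 fold change -0.41, limma adjusted p = 0.000769). The 5 markers of carcinoma epithelium summed to 174202 to 223391 normalized counts in WT and the knockout lines but to 55100.0 to 71344 in CRISPR Control, a difference carried by KRT8, KRT18 and KRT19. EPCAM was at 99.2% of WT in CRISPR Control and at 68.8% in TIMP1 KO 2, and KRT7 was at 123% of WT in CRISPR Control. The 3 mesenchymal markers summed to 53109 to 96467 over all libraries and were lowest in CRISPR Control (53109 to 64599). In that line FN1 was at 789% of WT, but VIM was at 82.9% and ZEB1 at 77.8%. Of the leukocyte markers CD3E was at or near 0 in every line, whereas CD14 was at a mean of 36.2 ± 5.86 normalized counts (SD, n = 3) in WT, 36.5 ± 1.29 in CRISPR Control, 83 ± 6.17 in TIMP1 KO 1 and 161 ± 10.8 in TIMP1 KO 2. The endothelial markers summed to 2.65 to 32.3 over all libraries. Of the 4 fibroblast genes DCN and LUM were at or near 0, whereas COL1A1 had a mean of 11490.2 in WT, 8868 in CRISPR Control, 56612 in TIMP1 KO 1 and 33836 in TIMP1 KO 2, and PDGFRA of 23.6, 2.95, 8.41 and 283. The libraries are bulk RNA, in which a lower level per cell and fewer cells with a gene switched on cannot be told apart. The lines differed at large: 53.4% of the tested genes differed between CRISPR Control and WT alone, so counts of genes that passed are set beside the share of all genes that passed the same test.

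RELA, which encodes the main activating subunit, was the most abundant of the 10 per kilobase of exon in WT and had the narrowest range of line means. It lies at chr11:65653599-65663090 on the minus strand. Its normalized counts were 6264, 5917 and 6257 in WT, 6588, 6100.0 and 7638 in CRISPR Control, 6269, 6119.9 and 6442 in TIMP1 KO 1 and 5731, 6627 and 6245 in TIMP1 KO 2. The ranges of the 4 lines overlapped, apart from the third CRISPR Control library, which was higher than any other. No comparison of RELA passed the limma test. The difference between TIMP1 KO 2 and WT was 0.01 on the log2 scale with a 95% interval of -0.16 to 0.18, and that between the deficient and competent lines was -0.05 (interval -0.16 to 0.07).

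NFKB1 encodes the precursor of a DNA-binding subunit of the canonical dimer (chr4:102501330-102617302, plus strand). It was at 2343, 2116 and 2206 normalized counts in WT, at 2000.4, 1793 and 2103 in CRISPR Control, at 2354, 2279.6 and 2276 in TIMP1 KO 1 and at 2526, 2411 and 2614 in TIMP1 KO 2. TIMP1 KO 2 was highest and CRISPR Control lowest without overlap with the other lines, while WT and TIMP1 KO 1 overlapped. The differences were small. NFKB1 was 0.18 higher in TIMP1 KO 2 than in WT on the log2 scale (limma adjusted p = 0.0462), a call that 10 of 23 alternative settings did not keep, with adjusted p up to 0.156. Against CRISPR Control it was higher by 0.36 in TIMP1 KO 2 (adjusted p = 0.000301) and by 0.23 in TIMP1 KO 1 (adjusted p = 0.0109), and the latter was lost without the second CRISPR Control library (0.17, adjusted p = 0.0526).

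NFKB2 encodes the precursor of the DNA-binding subunit of the noncanonical dimer and is itself a target of the pathway (chr10:102394110-102402524, plus strand). In WT the normalized counts were 4499, 4003 and 3992, and in CRISPR Control 2955, 2925 and 3260.4. The gene was at 4646, 4169 and 4412 in TIMP1 KO 1 and at 6753, 7168 and 7718 in TIMP1 KO 2. TIMP1 KO 2 lay above and CRISPR Control below all other libraries, and TIMP1 KO 1 overlapped WT. In TIMP1 KO 2 the gene was at 173% of WT, a log2 difference of 0.79 (limma adjusted p = 5.8e-08), whereas in TIMP1 KO 1 the difference was 0.08 (interval -0.08 to 0.24, adjusted p = 0.427). CRISPR Control was lower than WT by -0.45 on the log2 scale (adjusted p = 6.69e-05).

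RELB, the partner of the NFKB2 product in the noncanonical dimer (chr19:45001461-45038192, plus strand), was at 1018, 897 and 929 normalized counts in WT and at 659, 629 and 819 in CRISPR Control. It was at 1229, 1115 and 1287 in TIMP1 KO 1 and at 1137, 1413 and 1449 in TIMP1 KO 2. Both knockout lines lay above WT and WT above CRISPR Control with no overlap, and the knockout lines overlapped each other. The log2 difference from WT was 0.49 in TIMP1 KO 2 (limma adjusted p = 0.000992), 0.35 in TIMP1 KO 1 (adjusted p = 0.017) and -0.44 in CRISPR Control (adjusted p = 0.00238). The call in TIMP1 KO 1 was lost in 5 alternatives, among them those without the first (0.34, adjusted p = 0.0551) or the third (0.31, adjusted p = 0.0764) TIMP1 KO 1 library and without the second (0.31, adjusted p = 0.0642) or the third (0.34, adjusted p = 0.0557) WT library. Of the 4 subunit genes, NFKB2 and RELB were thus the ones with the larger differences between TIMP1 KO 2 and both WT and CRISPR Control.

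**Figure D2:**
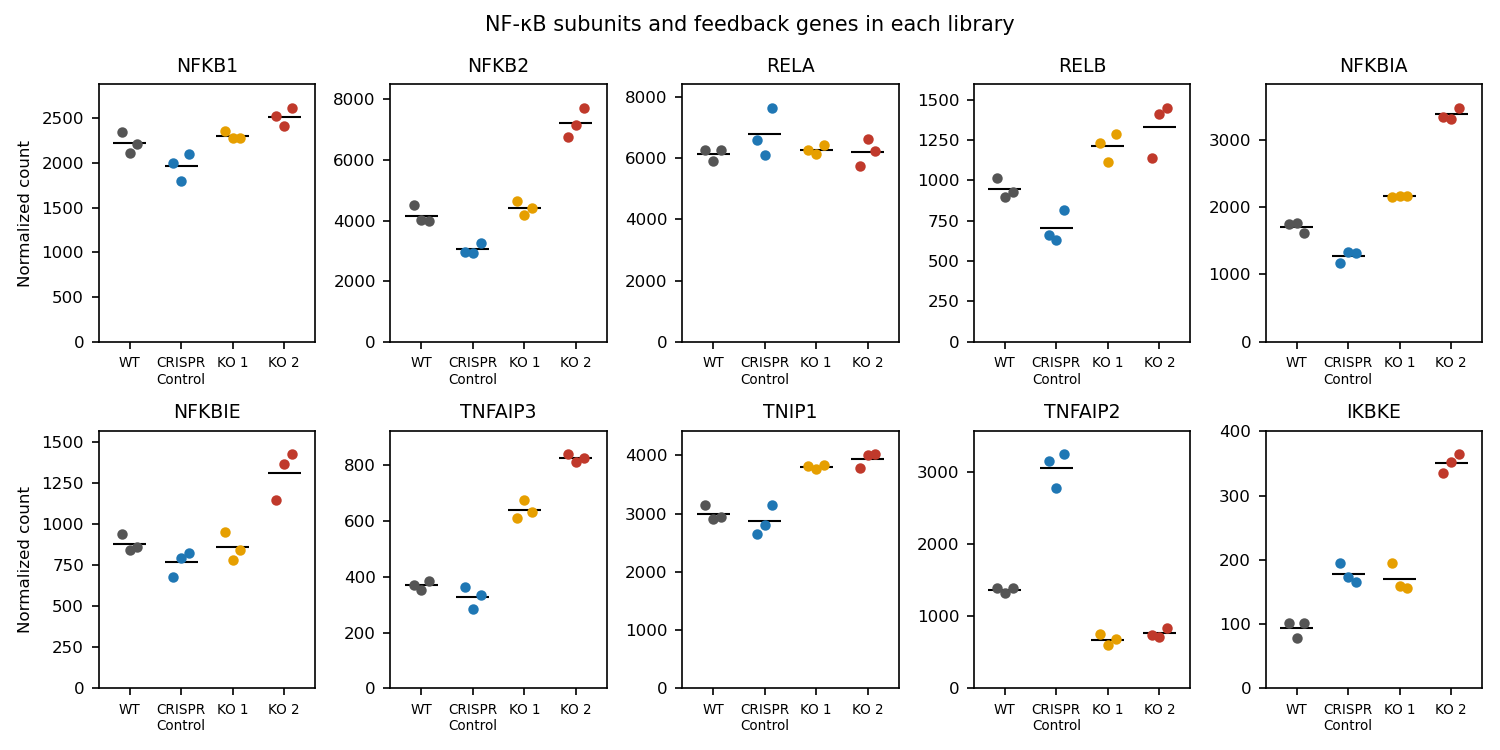
Normalized counts (y axis, linear from 0) of the 10 genes in each of the 12 libraries, by line, with bars at the line means (n = 3). TIMP1 KO 2 (red) sits above every other library for NFKB1, NFKB2, NFKBIA, NFKBIE, TNFAIP3 and IKBKE, and TNFAIP2 is highest in CRISPR Control (blue) and lowest in the knockout lines.

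Among the inhibitors NFKBIA stood at 4 separate levels in the 4 lines. It encodes IκBα, the inhibitor that is destroyed and then resynthesized in each round of activation (chr14:35401079-35404749, minus strand). NFKBIA was at 1748, 1760.1 and 1621 normalized counts in WT, at 1168, 1328 and 1319 in CRISPR Control, at 2153, 2163 and 2161 in TIMP1 KO 1 and at 3347, 3313 and 3475 in TIMP1 KO 2. The 4 lines did not overlap, and each differed from each other line in the limma test. TIMP1 KO 2 was at 198% of WT (log2 difference 0.98, interval 0.83 to 1.13, adjusted p = 1.32e-09), TIMP1 KO 1 at 126% (0.34, adjusted p = 0.0011) and CRISPR Control at 74.4% (-0.43, adjusted p = 5.85e-05).

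NFKBIE encodes IκBε, an inhibitor that acts with delay on dimers containing RELA (chr6:44258166-44265788, minus strand). Its normalized counts were 936, 842 and 862 in WT, 679, 792 and 825 in CRISPR Control, 949, 783 and 838 in TIMP1 KO 1 and 1148, 1364 and 1423 in TIMP1 KO 2. Only TIMP1 KO 2 stood clear of all other lines, by 0.57 on the log2 scale from WT (limma adjusted p = 0.000113) and by 0.78 from CRISPR Control (adjusted p = 1.96e-06). TIMP1 KO 1 differed from WT by -0.04 (interval -0.26 to 0.17), and the first WT and second TIMP1 KO 1 libraries set the sign of that value.

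TNFAIP3 encodes a ubiquitin-editing enzyme that shuts down signaling from tumor necrosis factor and Toll-like receptors (chr6:137867214-137883314, plus strand). It was at 370.1, 352 and 386 normalized counts in WT, at 364, 283 and 334 in CRISPR Control, at 611, 674 and 631 in TIMP1 KO 1 and at 838, 812 and 826 in TIMP1 KO 2. All knockout libraries lay above all WT and CRISPR Control libraries, which overlapped each other. The log2 difference from WT was 1.16 in TIMP1 KO 2 (limma adjusted p = 1.21e-08) and 0.79 in TIMP1 KO 1 (adjusted p = 4.55e-06), with -0.18 (interval -0.39 to 0.03) in CRISPR Control.

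TNIP1 encodes a ubiquitin-binding partner of the TNFAIP3 enzyme (chr5:151029945-151093577, minus strand). Its normalized counts were 3143, 2908 and 2941 in WT, 2659, 2812 and 3151 in CRISPR Control, 3818, 3768 and 3832 in TIMP1 KO 1 and 3789.8, 4003 and 4018 in TIMP1 KO 2. The knockout lines overlapped each other and lay above the overlapping WT and CRISPR Control libraries. On the log2 scale TNIP1 was higher than WT by 0.39 in TIMP1 KO 2 (limma adjusted p = 0.000126) and by 0.35 in TIMP1 KO 1 (adjusted p = 0.00089), and the difference between the clones was 0.05 (interval -0.10 to 0.20). TNFAIP3 and TNIP1 were the 2 of the 10 genes that passed the test against WT in both clones, in 1 direction, and not in CRISPR Control, a pattern met by 10.2% of all tested genes (5% higher, 5.18% lower). Without the first CRISPR Control library TNFAIP3 also differed between CRISPR Control and WT (-0.26, adjusted p = 0.0364), which left 1 gene.

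TNFAIP2, a gene induced by tumor necrosis factor in endothelial and myeloid cells and linked to membrane protrusions, was the 1 gene of the 10 that passed the test as lower than WT in the knockout lines (chr14:103121476-103137439, plus strand). It was at 1391, 1322 and 1396 normalized counts in WT, at 3157, 2788 and 3248 in CRISPR Control, at 749.8, 595 and 685 in TIMP1 KO 1 and at 738, 716 and 839 in TIMP1 KO 2. CRISPR Control lay above WT and WT above both knockout lines without overlap, and the knockout lines overlapped. Relative to WT it was at 49.4% in TIMP1 KO 1 (log2 difference -1.02, limma adjusted p = 7.93e-08), at 55.8% in TIMP1 KO 2 (-0.84, adjusted p = 4.13e-07) and at 224% in CRISPR Control (1.16, adjusted p = 6.2e-09). Because CRISPR Control and the knockout lines moved to opposite sides of WT, the difference between TIMP1 KO 1 and CRISPR Control reached -2.18 (interval -2.38 to -1.98), the largest of all 10 genes in any pair of lines.

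IKBKE encodes IKKε, a kinase that also activates interferon regulatory factors (chr1:206470476-206496889, plus strand). It was the least abundant of the 10, at 102, 78.2 and 101 normalized counts in WT, 195, 173 and 165 in CRISPR Control, 196, 159 and 155 in TIMP1 KO 1 and 335, 352 and 364 in TIMP1 KO 2. WT was lowest and TIMP1 KO 2 highest without overlap, and CRISPR Control and TIMP1 KO 1 overlapped between them. The log2 difference from WT was 1.90 in TIMP1 KO 2 (limma adjusted p = 1.63e-09), 0.85 in TIMP1 KO 1 (adjusted p = 9.66e-05) and 0.92 in CRISPR Control (adjusted p = 2.12e-05), so it was above WT in the line without a knockout as well. TIMP1 KO 1 differed from CRISPR Control by -0.07 (interval -0.36 to 0.23, adjusted p = 0.688).

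For RELA, TNFAIP2, TNFAIP3 and IKBKE the annotation places a long noncoding RNA on the opposite strand (RELA-DT, an unnamed gene, WAKMAR2 and IKBKE-AS1). The strand setting of the counting is not given in the sources used here, so reads of these pairs may not be separated.

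**Figure D3:**
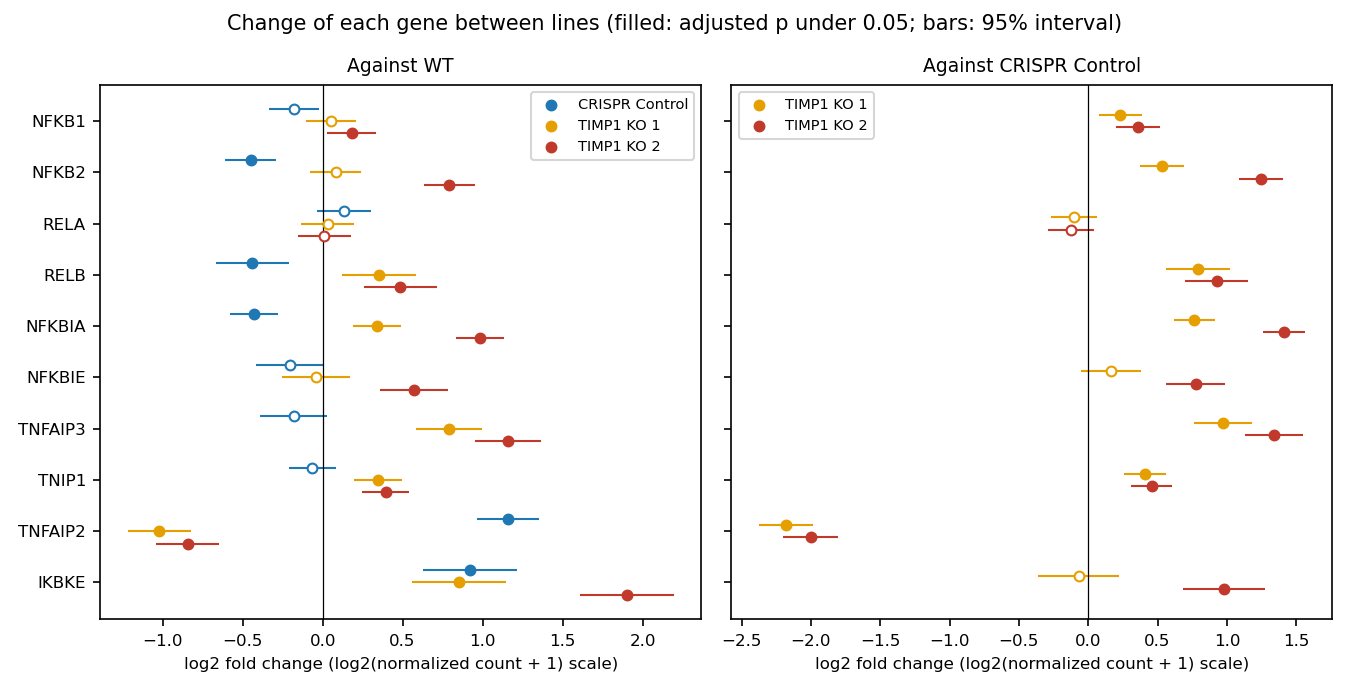
Log2 fold change on the log2(normalized count + 1) scale (x axis) of each gene against WT (left) and against CRISPR Control (right), with 95% intervals from the limma fit; filled points passed an adjusted p under 0.05 (n = 3 libraries per line). TIMP1 KO 2 lies to the right of TIMP1 KO 1 for every gene but RELA in both panels. The difference between these lines passed the test for NFKB2, NFKBIA, NFKBIE, TNFAIP3 and IKBKE.

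Read across the 10 genes, TIMP1 KO 1 differed from WT in 6, of which 5 were higher (RELB, NFKBIA, TNFAIP3, TNIP1 and IKBKE) and TNFAIP2 was lower, where 35.5% of all tested genes passed (18% higher, 17.5% lower). TIMP1 KO 2 differed from WT in 9, with 8 higher and TNFAIP2 lower, against 55% of all genes in either direction, 27.1% higher and 27.9% lower. CRISPR Control differed from WT in 5 genes, a share near the 53.4% of all genes (27.2% higher, 26.3% lower): TNFAIP2 and IKBKE were higher, and NFKB2, RELB and NFKBIA were lower. These 3 comparisons share the WT libraries, so their values are given side by side and not as independent results. The median log2 difference of the 10 genes from WT was 0.21 in TIMP1 KO 1, 0.53 in TIMP1 KO 2 and -0.18 in CRISPR Control, whereas the median of all tested genes was 0.00, -0.01 and 0.01.

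Against CRISPR Control the median log2 difference of the 10 genes was 0.32 in TIMP1 KO 1 and 0.85 in TIMP1 KO 2. There, 6 genes were higher and 1 lower in TIMP1 KO 1 (63% of all genes passed, 31.7% higher and 31.3% lower), and 8 were higher and 1 lower in TIMP1 KO 2 (67.7% of all genes passed, 33.3% higher and 34.4% lower). With the deficient lines, TIMP1 KO 1 and 2, averaged against the competent lines, WT and CRISPR Control, 8 genes were higher and 1 lower (65.9% of all genes passed, 32.9% higher and 33% lower). The differences over this contrast were 1.06 for TNFAIP3 (limma adjusted p = 1.43e-10), 0.92 for IKBKE (adjusted p = 1.56e-07), 0.87 for NFKBIA (adjusted p = 2e-11), 0.66 for NFKB2 (adjusted p = 2.84e-09) and 0.64 for RELB (adjusted p = 6.95e-07). They were smaller for TNIP1 (0.40), NFKBIE (0.37) and NFKB1 (0.21), and TNFAIP2 was at -1.51 (adjusted p = 3.36e-13). The p-values of this contrast rest on the spread of libraries within lines and not on the spread between lines of a genotype. An averaged difference need not hold in each line: TIMP1 KO 1 did not pass for NFKB2 against WT (0.08, adjusted p = 0.427) or for IKBKE against CRISPR Control (-0.07, adjusted p = 0.688). All 6 knockout libraries lay above all 6 others for 4 genes (RELB, NFKBIA, TNFAIP3 and TNIP1) and below them for TNFAIP2, a separation seen in 24.7% of all tested genes (12.3% above, 12.4% below).

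The knockout clones themselves differed. TIMP1 KO 2 was higher than TIMP1 KO 1 in 5 of the 10 genes and lower in none, where 38.2% of all tested genes passed, 18.1% higher and 20.1% lower. The log2 differences were 1.05 for IKBKE (limma adjusted p = 9.24e-06), 0.71 for NFKB2 (adjusted p = 5.97e-07), 0.65 for NFKBIA (adjusted p = 8.85e-07), 0.61 for NFKBIE (adjusted p = 0.000104) and 0.37 for TNFAIP3 (adjusted p = 0.00605). The same 5 genes were higher in TIMP1 KO 2 than in each of the other lines, as were 9.53% of all genes. For RELB (0.13, interval -0.10 to 0.36) and TNFAIP2 (0.18, interval -0.02 to 0.38) the clones did not pass the test. TIMP1 KO 2 had the highest and CRISPR Control the lowest mean of the 4 lines for 7 of the 10 genes, an order held by 16% of all tested genes. NFKBIA and RELB also passed the test on both sides of WT, lower in CRISPR Control and higher in both clones, as did 4.68% of all genes. In all, 6 of the 10 genes (NFKB2, RELB, NFKBIA, TNFAIP3, TNFAIP2 and IKBKE) passed in at least 5 of the 6 pairs of lines, where 26.9% of all genes did.

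Set against RELA within each library, NFKBIA and TNFAIP3 gave the same picture without reliance on the scaling between libraries. NFKBIE, TNIP1 and TNFAIP2 were not set against RELA. The ratio of NFKBIA to RELA normalized counts was 0.279 ± 0.0192 (SD, n = 3) in WT, 0.189 ± 0.0248 in CRISPR Control, 0.344 ± 0.00899 in TIMP1 KO 1 and 0.547 ± 0.0428 in TIMP1 KO 2. The ratio of TNFAIP3 to RELA was 0.0601 ± 0.00138 in WT, 0.0485 ± 0.00599 in CRISPR Control, 0.102 ± 0.00716 in TIMP1 KO 1 and 0.134 ± 0.0119 in TIMP1 KO 2. Both ratios were lowest in CRISPR Control and highest in TIMP1 KO 2, with no overlap of the libraries of any line. Among subunits, the ratio of NFKB2 to NFKB1 was 1.87 ± 0.0575 in WT, 1.55 ± 0.077 in CRISPR Control, 1.91 ± 0.0755 in TIMP1 KO 1 and 2.87 ± 0.167 in TIMP1 KO 2, so the noncanonical precursor gained on the canonical one in that clone. The ratio of RELB to RELA was 0.154 ± 0.00734 in WT and 0.103 ± 0.00358 in CRISPR Control. It was 0.193 ± 0.00928 in TIMP1 KO 1 and 0.215 ± 0.0168 in TIMP1 KO 2, and these clones overlapped (0.182 to 0.1998 and 0.198 to 0.232).

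Per kilobase of annotated exon in WT, the levels ran from RELA (1126 normalized counts per kb) through NFKB2 (746), TNIP1 (517), NFKBIA (504), NFKBIE (341), RELB (316), TNFAIP2 (271) and NFKB1 (142) to TNFAIP3 (57.3) and IKBKE (24.7). In TIMP1 KO 2 NFKB2 reached 1292 per kb and stood above RELA at 1136, and NFKBIA at 995 stood next in order. The NFKB1 value is divided by a union of exons of many isoforms and is therefore low.

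The genes around this core were read from 3 lists by role. Of 14 tested genes for further subunits, inhibitors and ubiquitin editors, 3 were higher and 3 lower than WT in TIMP1 KO 1, 7 higher and 2 lower in TIMP1 KO 2 and 4 higher and 0 lower in CRISPR Control, with median log2 differences of -0.05, 0.27 and 0.10. The shares that passed were 42.9%, 64.3% and 28.6%, beside 35.5%, 55% and 53.4% of all tested genes. TAX1BP1, an adaptor of the TNFAIP3 enzyme, was higher by 0.70 in TIMP1 KO 1 (limma adjusted p = 2.27e-06) and 0.72 in TIMP1 KO 2 (adjusted p = 6.5e-07). CYLD, a deubiquitinase that restrains the pathway, was higher by 0.77 in TIMP1 KO 2 (adjusted p = 9.14e-07) and by 0.25 in CRISPR Control (adjusted p = 0.0264), with 0.11 in TIMP1 KO 1 (adjusted p = 0.382). TNIP2 and COMMD1, both restraining factors, were lower in the deficient than in the competent lines by -0.49 (adjusted p = 2.58e-06) and -0.35 (adjusted p = 9.15e-05). Both were also higher in CRISPR Control than in WT, TNIP2 by 0.64 (adjusted p = 1.25e-05). Against WT alone TNIP2 did not pass in TIMP1 KO 1 (-0.22, adjusted p = 0.0689) or in TIMP1 KO 2 (-0.11, adjusted p = 0.311). COMMD1 was at 86.1% of WT in TIMP1 KO 1 and at 84.9% in TIMP1 KO 2.

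The 35 upstream receptors, kinases and adaptors were split in direction. In TIMP1 KO 1, 7 were higher and 7 lower than WT, in TIMP1 KO 2 14 and 13, and in CRISPR Control 11 and 9, with medians of 0.03, 0.09 and -0.01. The shares that passed were 40%, 77.1% and 57.1%, beside 35.5%, 55% and 53.4% of all tested genes. TLR3, a Toll-like receptor gene, passed the filter on low values only through TIMP1 KO 2 (mean 58.3, line means of at most 6.52 elsewhere). TLR4 passed it only through CRISPR Control (mean 39.9, against 13.8 in TIMP1 KO 2, 3.83 in WT and 3.03 in TIMP1 KO 1). LTBR passed it only through WT (mean 363). All are included in these counts, medians and shares, but their values in those lines are not independent of the filter. BCL10, a scaffold protein of antigen receptor signaling, rose by 0.85 in TIMP1 KO 1 (limma adjusted p = 2.99e-05) and 1.21 in TIMP1 KO 2 (adjusted p = 1.48e-07). TNFRSF1A, the main receptor for tumor necrosis factor, rose by 0.30 (adjusted p = 0.00665) and 0.58 (adjusted p = 5.16e-06) and was lower in CRISPR Control by -0.46 (adjusted p = 7.95e-05). IL1R1, the interleukin-1 receptor, was lower in both clones (-1.16 and -0.72, adjusted p = 2.64e-07 and 3.76e-05). It also passed the test in CRISPR Control, where it was at 124% of WT. LTBR, the lymphotoxin receptor that feeds the noncanonical branch, had 346 to 388 normalized counts in the WT libraries and 0 to 4.4 in the libraries of the 3 other lines, at most 4 reads in any. Its near absence was shared by CRISPR Control and both knockout lines, and its part in the levels of NFKB2 and RELB was not tested.

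Of 28 listed target genes of NF-κB, 20 were tested. Against WT, 10 were higher and 4 lower in TIMP1 KO 1 (median 0.25), 13 higher and 4 lower in TIMP1 KO 2 (median 0.79) and 6 higher and 9 lower in CRISPR Control (median -0.16). Between the clones 14 were higher in TIMP1 KO 2 and 1 was lower (median 0.54). Among all tested genes 18% were higher and 17.5% lower in TIMP1 KO 1, 27.1% and 27.9% in TIMP1 KO 2, 27.2% and 26.3% in CRISPR Control and 18.1% and 20.1% between the clones. PTGS2 passed the filter on low values only through CRISPR Control and TIMP1 KO 2 (means 29.8 and 33.8, against 2.42 in WT and 1.77 in TIMP1 KO 1). It is included in these counts and medians, but its values in those lines are not independent of the filter. CCL2, a chemokine that attracts monocytes, was higher by 0.88 in TIMP1 KO 1 (limma adjusted p = 9.05e-07) and 1.79 in TIMP1 KO 2 (adjusted p = 2.09e-11), and TRAF1, a signaling adaptor, by 0.71 (adjusted p = 0.000173) and 1.86 (adjusted p = 3.25e-10). Both also passed the test in CRISPR Control, where CCL2 was at 80.9% and TRAF1 at 74.3% of WT. The list did not move as a whole. CXCL1, a neutrophil chemokine, was lower than WT by -2.50 in TIMP1 KO 1, -1.76 in TIMP1 KO 2 and -1.43 in CRISPR Control (adjusted p = 3.43e-10, 1.75e-08 and 3.27e-07), and PLAU, which encodes urokinase, was lower by -0.74 and -0.80 in the clones (adjusted p = 9.31e-08 and 1.31e-08).

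**Figure D4:**
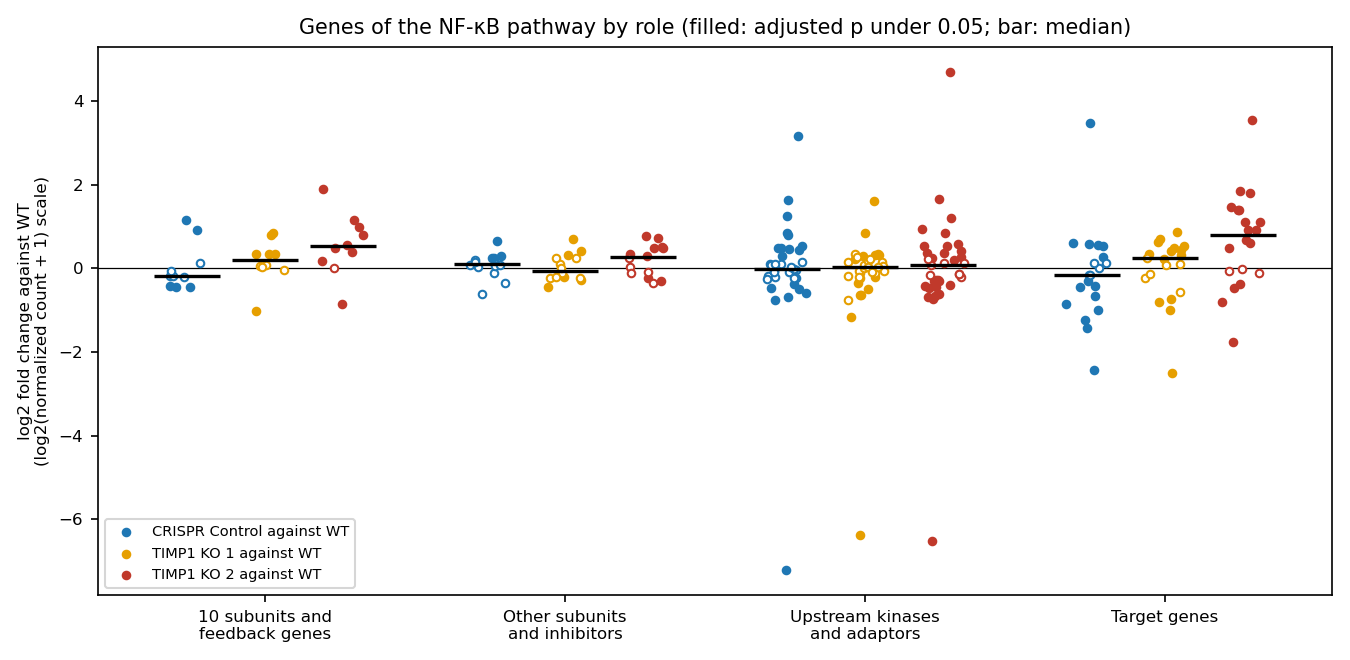
Log2 fold change against WT on the log2(normalized count + 1) scale (y axis) of the 10 genes and of the tested genes of 3 lists by role, in CRISPR Control (blue), TIMP1 KO 1 (orange) and TIMP1 KO 2 (red). Each point is a gene, filled where adjusted p was under 0.05, and black bars are medians; the target genes have medians of -0.16, 0.25 and 0.79, and the lowest points are LTBR.

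Genes induced by interferon also differed between the lines. The 10 listed interferon-stimulated genes summed to 8281 to 8379.5 normalized counts in WT, 9343 to 10065 in CRISPR Control, 11751 to 14393 in TIMP1 KO 1 and 56785 to 57981 in TIMP1 KO 2. Of these, 8 were higher and 0 lower than WT in TIMP1 KO 1 (median 1.09), 10 higher in TIMP1 KO 2 (median 3.61) and 3 higher and 6 lower in CRISPR Control (median -0.70). In all 80%, 100% and 90% of the list passed, beside 35.5%, 55% and 53.4% of all tested genes. IFI44 passed the filter on low values only through TIMP1 KO 2, with a mean of 494 normalized counts there. Its means were 5.17 in WT, 1.15 in CRISPR Control and 2.76 in TIMP1 KO 1. It is included in these counts and medians, but its value in TIMP1 KO 2 is not independent of the filter. TIMP1 KO 2 was thus the line with the highest summed level of interferon-stimulated genes and the highest median difference of NF-κB target genes and of the 10 genes. The part of the interferon genes, of CD14, of COL1A1 and PDGFRA and of the keratin difference in these results was not tested.

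The genes most like TNFAIP2 and IKBKE over the 4 line means, the 2 members with the widest range, were sought among 11632 genes by the root mean square difference of centered log2 means. Closest to TNFAIP2 were CORO1A, ITPR1 and CCNYL1 (differences of 0.10 each on the log2 scale), and closest to IKBKE were PLPP3, RAB3B and ERICH2 (0.06, 0.08 and 0.09). With only 4 lines such likeness is a description.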

How the data were processed

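RNA-seq of 12 MIA PaCa-2 libraries was used, grouped by genotype and replicate number from the labels. The authors trimmed reads with Cutadapt, mapped them to GRCh38 with STAR, counted them per gene with featureCounts and scaled the counts with DESeq2, so the deposited values are a signal of scaled read counts. The strand setting and annotation release are not given in the sources used here. A blank line and 4 columns of line means were left out. Dividing by the value of a single read gave whole reads for 100% of positive values within 0.01 reads, and these reads gave the depth. The 95% intervals are of the fit and cover the spread between libraries only.

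limma (3.58.1, R 4.3.3; lmFit, contrasts.fit, eBayes with trend) was run on log2(value + 1) for 15987 genes with a mean of at least 10, with 4 line means from all 12 libraries. Two-sided p-values got a Benjamini-Hochberg adjustment over all tested genes (threshold 0.05). Fold changes on this scale understate changes of low genes. Alternatives were pseudocounts of 0.5 and 10, no filter, a minimum mean of 50, equal library totals, quantile normalization, only the lines compared, no trend, edgeR (4.0.16, quasi-likelihood) and DESeq2 (1.42.0) on recovered reads, a replicate block and each library left out. The procedure was tested on simulated data. Replicate numbers did not pair the libraries: of 18 same-numbered pairs, correlations of deviations ran from -0.13 to 0.16 and 2 exceeded 0.1.

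Named genes were TIMP1, the 10 members, the 2 highest and 2 lowest per list (deficient against competent lines, past the threshold, mean of at least 50) and the 3 genes most like each of the 2 members with the widest range (mean of at least 100). Other list genes entered counts and medians only, apart from those named for the filter on low values. Marker genes served the cell check, most of them only in sums. Members and lists were chosen with earlier results of these data known. SOD2 was not analysed here, and 1 marker is not reported here.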

Additional observations from a re-analysis of the deposited data

Results flagged for a closer look

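The change against WT differed between the knockout clones in 5 genes, by the limma test of TIMP1 KO 2 against TIMP1 KO 1, which is the test of that difference because both changes share the WT libraries. The difference in log2 change was 0.71 for NFKB2 (adjusted p = 5.97e-07), which TIMP1 KO 1 did not show against WT (0.08, adjusted p = 0.427). It was 0.61 for NFKBIE (adjusted p = 0.000104), likewise with no call in TIMP1 KO 1 (-0.04, adjusted p = 0.79). For NFKBIA (0.65, adjusted p = 8.85e-07), TNFAIP3 (0.37, adjusted p = 0.00605) and IKBKE (1.05, adjusted p = 9.24e-06) both clones were above WT, and TIMP1 KO 2 was farther above it in 3 of 3 libraries. Both clones target the same exon of TIMP1, whose level was 45% of WT in TIMP1 KO 1 and 32.7% in TIMP1 KO 2, and clone and knockout cannot be told apart.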

How the results depend on the processing

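Of 70 values, 10 genes in 7 comparisons, 50 passed the main test; 47 of these passed under every alternative and none changed sign. The exceptions were NFKB1 (TIMP1 KO 2 against WT and TIMP1 KO 1 against CRISPR Control) and RELB (TIMP1 KO 1 against WT). Of the 20 that did not pass, 6 did under some alternative. The replicate block raised the count in CRISPR Control against WT from 5 to 6, adding NFKB1 (adjusted p = 0.0468), and changed no other count. With single libraries left out, counts ran from 5 to 6 in TIMP1 KO 1 and 8 to 9 in TIMP1 KO 2 against WT, 5 to 7 in CRISPR Control against WT, 6 to 7 and 9 to 10 in TIMP1 KO 1 and 2 against CRISPR Control, 5 to 5 between clones, 9 to 9 for deficient against competent lines and 1 to 2 for the genes changed in both clones only. Signs that changed were all of values without a call. RELA moved to 0.017 (quantile) in TIMP1 KO 2 against CRISPR Control and to 0.083 (equal totals) and 0.095 (quantile) between clones, where it ran from -0.069 to 0.036 with a library left out. For deficient against competent lines RELA moved to 0.0070 (equal totals) and 0.040 (quantile), and in TIMP1 KO 2 against WT it ran from -0.038 to 0.066 with a library left out. NFKBIE in TIMP1 KO 1 against WT ran from -0.12 to 0.021 and IKBKE in TIMP1 KO 1 against CRISPR Control from -0.17 to 0.00012. Equal totals moved the median of all genes to 0.11 in TIMP1 KO 2 against CRISPR Control and the share of calls that were higher from 49.3% to 59.9% in TIMP1 KO 2 against WT and from 47.4% to 65.5% between clones, where 7 of the 10 genes then passed. The lowest level, and so the least precise, was IKBKE in WT. On recovered reads, edgeR called 5796 genes in TIMP1 KO 1 and 8969 in TIMP1 KO 2 against WT, where limma called 5682 and 8791.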
